A study of Mus musculus and Bos taurus with 26 samples.

Results

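The nucleosome remodelling and deacetylase (NuRD) complex was followed through genome activation in mouse and bovine embryos, using the 10 genes Chd4, Mta1, Mta2, Mta3, Mbd2, Mbd3, Gatad2a, Gatad2b, Rbbp4 and Rbbp7. They were taken by symbol from the deposited expression values, in capitals for cattle, and all 10 were found and passed the filter on low values in both species, out of 27988 mouse and 21577 bovine genes. Polyadenylated RNA of whole embryos had been sequenced in 26 libraries, 22 from mouse and 4 from cattle, with 2 libraries in each of 13 groups. At the late 2-cell stage, 36 h after fertilization, mouse embryos had been injected as zygotes with mRNA for mutant Hdac1 (called Hdac1 mutant here) or wild-type Hdac1 (Hdac1 WT), with mRNA for mutant or wild-type Hdac2 (Hdac2 mutant and Hdac2 WT), or with water. Further late 2-cell groups had been cultured from the zygote stage with 50 nM of the HDAC inhibitor FK228, or in KSOM medium with its solvent DMSO. For a last pair of late groups, zygotes given mutant Hdac1 mRNA were injected again as early 2-cell embryos, each blastomere with Kdm5b mRNA or with water. Hdac1 mutant and Hdac1 WT embryos were also collected at the early 2-cell stage, 24 h after fertilization. Bovine 8/16-cell embryos, 72 h after fertilization, had been treated with 50 nM FK228 from the zygote stage or cultured in BO-IVC medium with DMSO. The labels do not state the strain, the mutations carried by the injected mRNAs, their doses, or how many embryos were pooled. All injected embryos had their own Hdac1 and Hdac2 genes as far as the labels say, so the mutant groups are embryos with added mutant enzyme and not knockouts.

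NuRD joins a nucleosome remodelling ATPase to the histone deacetylases HDAC1 and HDAC2, and is known for silencing and fine-tuning transcription in early embryos and embryonic stem cells. CHD4 moves nucleosomes, the MTA proteins hold the deacetylases and the histone-binding WD40 proteins RBBP4 and RBBP7, and an MBD protein bridges this deacetylase module to the ATPase through GATAD2A or GATAD2B. Most of these positions can be filled by alternative paralogues, and MBD2 and MBD3 are found in separate forms of the complex, of which the MBD2 form binds methylated DNA.

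The values were FPKM, which divide a gene's fragments by its transcript length and by the fragments of the library, so they are levels relative to each library's total. In mouse, 10704 to 14554 genes per library reached 1 FPKM, and replicate libraries correlated with r between 0.955 and 0.989 across genes. In cattle these were 11598 to 12141 genes and r between 0.983 and 0.985. Mouse late libraries with mutant enzyme or FK228 had 13412 to 14554 genes at 1 FPKM, and the other late libraries 11284 to 12105. All FPKM summed to 261955 to 295030 in Hdac1 mutant, Hdac2 mutant and FK228 libraries. The sums were 329446 to 344447 in the twice-injected libraries and 312735 to 375640 in the other late libraries. The part of these differences in the results below was not tested. The files give no read counts, so absolute depth is unknown; the most frequent ratio between low values puts the relative depth of the mouse libraries between 0.66 and 1.29 of their median and that of the bovine libraries between 0.91 and 1.07. The injected mRNAs were seen where the labels place them: at the late 2-cell stage Hdac1 was at 4950 and 4610 FPKM in Hdac1 mutant and 2710 and 2960 FPKM in Hdac1 WT embryos, against 92.2 and 89.3 FPKM after water. Hdac2 was at 2440 and 2290 FPKM in Hdac2 mutant and 1770 and 1460 FPKM in Hdac2 WT embryos, against 26.4 and 19.2 FPKM after water, and these values do not tell mutant from wild-type transcripts. At the early 2-cell stage Hdac1 was at 4010 and 2950 FPKM in Hdac1 mutant and 7250 and 4520 FPKM in Hdac1 WT embryos, the reverse of the late order. The summed FPKM of 7 genes of the 2-cell burst was 482 to 708 in the late groups with mutant Hdac1, mutant Hdac2 or FK228, and 171 to 290 in the other late groups. At the early stage it was 119 to 175 in Hdac1 mutant and 282 to 284 in Hdac1 WT embryos. The summed FPKM of 9 blood cell markers was 93.1 to 189 in these same perturbed groups and 4.29 to 17.7 in the other late groups. Over all mouse libraries, the globin genes Hba-a1 and Hba-a2 reached 78.6 and 76.1 FPKM, and the leukocyte genes Cd74, Cd52 and Lyz2 reached 43.8, 24.6 and 13.2 FPKM. The globin genes Hbb-bs and Hbb-bt were at 0 in 21 of 22 libraries, and the leukocyte gene Ptprc in 16. The sum of 12 cumulus and granulosa markers ran the other way, at 29.3 to 62.5 FPKM in those perturbed groups and 107 to 136 FPKM in the other late groups, mostly through Nr5a2 and Amhr2, while the granulosa receptor gene Fshr was at 0 in 18 of 22 libraries. Sperm markers summed to at most 8.45 FPKM. Their part in the results below was not tested. In whole embryos, fewer cells expressing a gene and less RNA per cell cannot be told apart, nor can a loss of RNA and a loss of its poly(A) tail.

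The sequences just upstream of 3 members, Mta2, Rbbp4 and Rbbp7, are shown. Mta2 had the widest range of all members, and the share of Rbbp4 in the summed Rbbp4 and Rbbp7 FPKM was lowest at the early stage. The late calls of Rbbp4 and Rbbp7 in the mutant comparisons depended on the setting, as given below. Each sequence is the 250 bases before the RefSeq transcription start in GRCm38.p6, on the gene's strand. Capitals mark 3 motifs found on either strand. The GC box, bound by Sp-family factors, is spelled GGGCGG. The CCAAT box, bound by the factor NF-Y, is spelled as its name. The core site of ETS-family factors was searched as the letters CCGGAAG. The last bases of the Mta2 window lie inside the gene as GENCODE annotates it, while the RefSeq start used for Rbbp7 lies upstream of its GENCODE start. The Mta2 window is chr19:8941670-8941919 on the plus strand, that of Rbbp4 is chr4:129335371-129335620 on the minus strand, and that of Rbbp7 is chrX:162760122-162760371 on the plus strand.
Mta2: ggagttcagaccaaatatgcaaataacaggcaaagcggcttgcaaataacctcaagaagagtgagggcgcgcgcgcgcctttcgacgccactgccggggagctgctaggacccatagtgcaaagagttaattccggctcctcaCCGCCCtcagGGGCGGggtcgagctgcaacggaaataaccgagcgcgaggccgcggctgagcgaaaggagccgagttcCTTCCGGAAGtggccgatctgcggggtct
Rbbp4: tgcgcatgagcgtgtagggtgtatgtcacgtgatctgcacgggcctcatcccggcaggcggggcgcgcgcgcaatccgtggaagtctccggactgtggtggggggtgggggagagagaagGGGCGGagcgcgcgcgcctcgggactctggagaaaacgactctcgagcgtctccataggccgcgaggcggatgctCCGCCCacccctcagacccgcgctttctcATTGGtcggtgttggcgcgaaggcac
Rbbp7: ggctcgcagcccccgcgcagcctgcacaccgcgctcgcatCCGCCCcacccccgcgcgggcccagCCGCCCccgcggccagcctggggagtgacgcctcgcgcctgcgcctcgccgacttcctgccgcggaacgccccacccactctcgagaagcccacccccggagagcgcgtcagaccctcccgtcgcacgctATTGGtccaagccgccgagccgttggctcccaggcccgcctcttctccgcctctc

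All 8 members with a RefSeq window used here had at least 1 GC box in it, against 32.7% of 32851 mouse windows of the same length. A CCAAT box stood in 5 of the 8, against 33.8% of all windows. The ETS core stood in the Mta2 window alone of the 8, as 2 overlapping matches on opposite strands, against 6.9% of all windows. These ETS matches lie in the part of the window that GENCODE places inside the Mta2 gene. The Mta2 window held 24 CpG dinucleotides, that of Rbbp4 30 and that of Rbbp7 34, against a median of 6.0 over all windows. These matches describe letters only. In the GENCODE annotation of GRCm38, the Mta2 gene lies at chr19:8941875-8952303, Rbbp4 at chr4:129307100-129335370 and Rbbp7 at chrX:162760402-162779092. Sync overlaps the Rbbp4 gene and Txlng the end of Rbbp7, and a non-coding antisense gene overlaps Gatad2b. The labels describe no strand-marking step, so reads of such neighbours cannot be told apart.

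The question put by the series is whether HDAC1 and HDAC2 are needed for genome activation, and the late 2-cell comparisons test it with mutant Hdac1, mutant Hdac2 and FK228, each against its own control libraries. In all 3, most NuRD transcripts were lower: Mta2, Mta3, Mbd3, Gatad2b, Rbbp4 and Rbbp7 fell in each, with Mta2 furthest, while Mbd2 rose in Hdac1 mutant and FK228 embryos, Chd4 rose after FK228, and Mta1 passed no test. Under quantile normalization Rbbp7 no longer fell in any of the 3, and the Hdac1 call of Rbbp4 was lost. Gatad2a, which fell in Hdac2 mutant embryos, lost that call under it and was called higher in Hdac1 mutant and FK228 embryos. In Hdac1 mutant embryos 6 of the 10 members fell and 1 rose, against 21.6% and 30.5% of all 17336 genes tested. In Hdac2 mutant embryos 7 fell and 0 rose, against 22.2% and 30.8% of all genes. After FK228, 6 fell and 2 rose, against 26.3% and 31% of all genes. The median log2 fold change of the 10 members was -0.58 in Hdac1 mutant, -0.72 in Hdac2 mutant and -0.76 in FK228 embryos, while over all genes it was 0.17, 0.14 and 0.15 in the same order of comparisons. Summed over the 10 members, FPKM was 269 and 290 in Hdac1 mutant embryos, against 573 and 549 in Hdac1 WT embryos. Much of this difference lay in Mta2, at 33.5 and 40.4 FPKM against 225 and 221 FPKM. Calls are limma adjusted p-values under 0.05 on log2(FPKM + 1) over all genes. Quantile normalization moved the median of all genes to -0.06, -0.05 and -0.04, and that of the members to -0.38, -0.28 and -0.30. With a minimum of 5 FPKM the median of all genes was 0.03, -0.03 and -0.03, and the share of higher among all calls was 50.8%, 48.5% and 45.2%, against 58.5%, 58.1% and 54.1% without it. The members' medians of -0.58, -0.72 and -0.76 could not move, since this filter removes other genes and leaves each member's own change as it was. The summed markers of the 2-cell burst, blood, and cumulus and granulosa cells given above differed between the same groups, and their part in these changes was not tested. The labels do not say that replicates came from separate cultures, so p-values measure only the spread between these libraries.

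**Figure D1:**
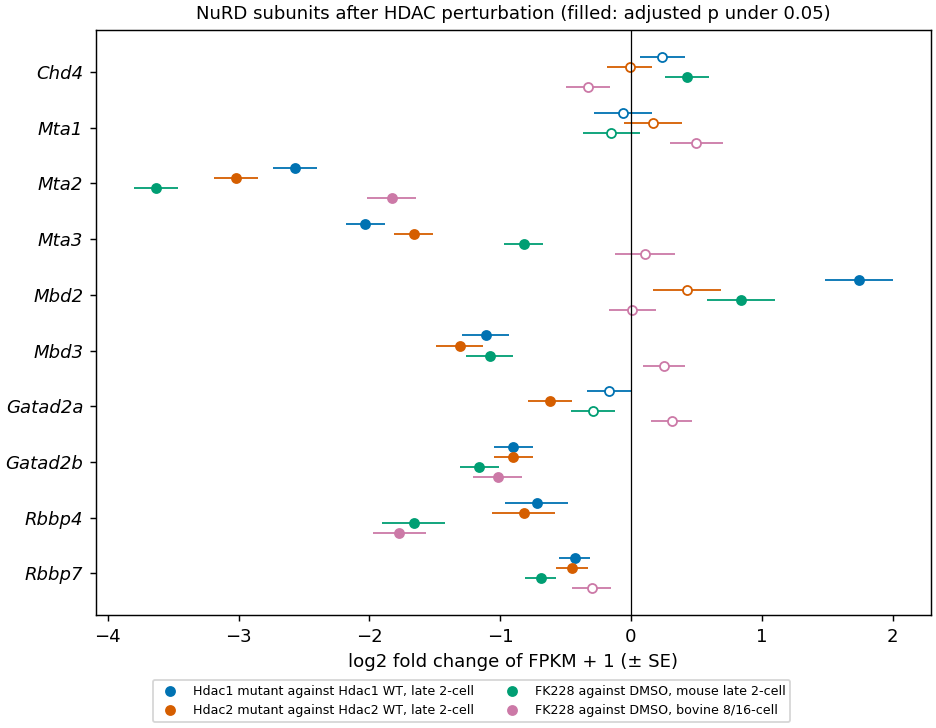
Log2 fold change of FPKM + 1 (x axis, with SE) of the 10 NuRD subunits (y axis) in 3 mouse late 2-cell comparisons and 1 bovine 8/16-cell comparison, each with 2 libraries per group. Filled points passed an adjusted p of 0.05 in limma and open points did not; Mta2 lies farthest left in each comparison, from -3.63 after FK228 in mouse to -1.83 after FK228 in cattle.

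Mta2 encodes the MTA scaffold with the most transcript in late 2-cell controls. It had 33.5 and 40.4 FPKM in Hdac1 mutant embryos, against 225 and 221 FPKM in Hdac1 WT embryos. It had 32.8 and 27.1 FPKM in Hdac2 mutant embryos, against 234 and 266 FPKM in Hdac2 WT embryos. After FK228 it had 22.9 and 18.7 FPKM, against 273 and 264 FPKM in DMSO. The groups were far apart in each comparison, and every perturbed library was below every control library. The mean was 6.02-fold lower in Hdac1 mutant, 8.33-fold lower in Hdac2 mutant and 12.9-fold lower in FK228 embryos. On the log2(FPKM + 1) scale Mta2 fell by 2.57 ± 0.17 (SE; limma adjusted p = 1.28e-08), 3.02 ± 0.17 (adjusted p = 2.77e-09) and 3.63 ± 0.17 (adjusted p = 5.1e-10) in these comparisons. Ranked by fold change among the 17336 genes, Mta2 stood at 161 from the lowest in Hdac1 mutant, 73 in Hdac2 mutant and 67 in FK228 embryos.

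Mta3, an alternative scaffold, also fell in all 3 comparisons. Hdac1 mutant embryos had 6.33 and 7.9 FPKM, against 32.1 and 32.0 FPKM in Hdac1 WT embryos. Hdac2 mutant embryos had 9.57 and 9.99 FPKM, against 32.1 and 33.8 FPKM in Hdac2 WT embryos. FK228 embryos had 13.3 and 16.4 FPKM, against 25.7 and 28.1 FPKM in DMSO embryos. The groups did not overlap in any of these comparisons, and the log2 changes were -2.03 ± 0.15, -1.66 ± 0.15 and -0.82 ± 0.15 (SE; limma adjusted p = 4.73e-08, 2.76e-07 and 0.000247). Mta1, the third scaffold, stayed between 5.61 and 17 FPKM in these 3 pairs of groups and passed no test in them. Its log2 changes were -0.06 (95% confidence interval -0.52 to 0.40) in Hdac1 mutant, 0.17 (-0.29 to 0.63) in Hdac2 mutant and -0.15 (-0.61 to 0.32) in FK228 embryos. Mta2 and Mta3 kept these calls under all 12 settings tried for each comparison.

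**Figure D2:**
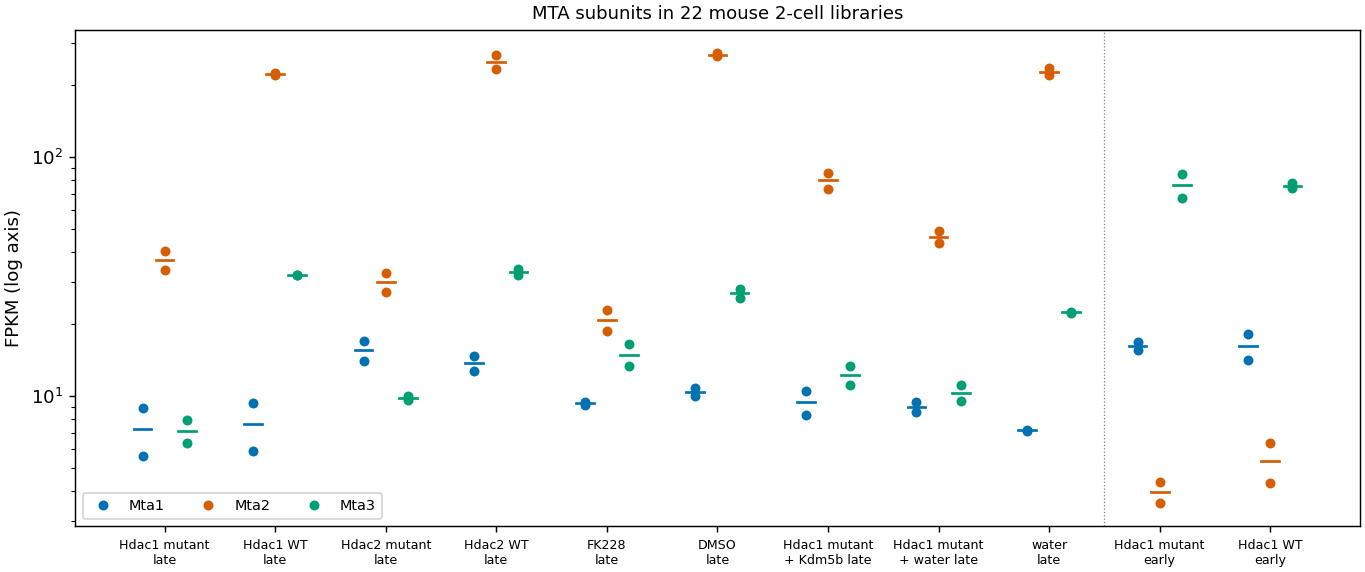
FPKM (log axis) of Mta1, Mta2 and Mta3 in the 22 mouse libraries by group, with points for libraries, bars for means of 2 libraries, and a dotted line between late and early 2-cell groups. Mta2 lies at 220 to 273 FPKM in the late groups without mutant enzyme or FK228, at 18.7 to 86.0 FPKM in those with them, and at 3.54 to 6.31 FPKM at the early 2-cell stage.

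The methyl-CpG-binding domain genes Mbd3 and Mbd2 moved in opposite directions in Hdac1 mutant and FK228 embryos. Mbd3, whose protein has little affinity for methylated CpG in mammals, had 16.0 and 22.6 FPKM in Hdac1 mutant embryos, against 47.5 and 37.8 FPKM in Hdac1 WT embryos. It had 28.0 and 22.9 FPKM in Hdac2 mutant embryos, against 61.6 and 67.2 FPKM in Hdac2 WT embryos. It had 29.3 and 35.1 FPKM after FK228, against 76.5 and 61.7 FPKM in DMSO. Mbd3 was thus lower in every perturbed library than in every library of its control group, by 1.11 ± 0.18, 1.31 ± 0.18 and 1.08 ± 0.18 on the log2 scale (SE; limma adjusted p = 8.66e-05, 1.65e-05 and 9.62e-05). Mbd2, whose protein binds methylated CpG, had 11.3 and 18.2 FPKM in Hdac1 mutant embryos, against 5.17 and 2.46 FPKM in Hdac1 WT embryos. It had 29.9 and 24.4 FPKM in Hdac2 mutant embryos, against 20.6 and 19.0 FPKM in Hdac2 WT embryos. It had 24.8 and 32.6 FPKM after FK228, against 15.4 and 15.4 FPKM in DMSO. The perturbed libraries were higher in each comparison, but only the changes of 1.74 ± 0.26 in Hdac1 mutant (adjusted p = 4.55e-05) and 0.84 ± 0.26 in FK228 embryos (adjusted p = 0.012) passed the test. The Hdac1 call was lost when these groups alone were fitted (adjusted p = 0.0584). The Hdac2 difference was 0.43 (95% confidence interval -0.13 to 0.99; adjusted p = 0.19), and 0.71 (adjusted p = 0.0366) under quantile normalization. The FK228 call for Mbd2 was lost without FK228 replicate 2 (adjusted p = 0.108) or without DMSO replicate 1 (adjusted p = 0.0501).

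The control levels of Mbd2 were not alike. They were 3.81 ± 1.92 FPKM in Hdac1 WT, 7.48 ± 1.01 FPKM after water, 15.4 ± 0.044 FPKM in DMSO and 19.8 ± 1.07 FPKM in Hdac2 WT embryos (SD, n = 2 each), a wider spread than that of Mta2 in the same libraries, 223 to 268 FPKM by group mean. Hdac2 WT embryos were at 19.8 FPKM against 14.8 FPKM in Hdac1 mutant embryos, so the Mbd2 levels of perturbed and control groups overlapped when taken across sets. The labels name no batch, and a difference between sets of libraries cannot be told apart from the treatments.

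Of the bridging subunits, Gatad2b had 22.5 and 18 FPKM in Hdac1 mutant embryos, against 45.6 and 32.5 FPKM in Hdac1 WT embryos. It had 24.8 and 21.3 FPKM in Hdac2 mutant embryos, against 42.9 and 44.9 FPKM in Hdac2 WT embryos. It had 22.2 and 22.7 FPKM after FK228, against 48.3 and 54.8 FPKM in DMSO. No group overlapped its control, and the log2 changes were -0.90 ± 0.15, -0.90 ± 0.15 and -1.16 ± 0.15 (SE; limma adjusted p = 0.000107, 9.64e-05 and 6.75e-06). The Hdac1 call was lost when these groups alone were fitted (adjusted p = 0.0665). Gatad2a, its more abundant paralogue, had 65.7 and 55.4 FPKM in Hdac1 mutant embryos, against 74.1 and 62.0 FPKM in Hdac1 WT embryos, and these overlapped. It had 94.6 and 70.3 FPKM in Hdac2 mutant embryos, against 137 and 115 FPKM in Hdac2 WT embryos. It had 62.7 and 69.1 FPKM after FK228, against 81.1 and 79.9 FPKM in DMSO. Water embryos had 66.4 and 69.9 FPKM of Gatad2a, so neither Hdac2 mutant library lay below them. Gatad2a passed the test in the Hdac2 comparison, at -0.62 ± 0.17 (adjusted p = 0.00551), where the call was lost under quantile normalization (0, adjusted p = 0.999), without Hdac2 mutant replicate 2 (adjusted p = 0.0993), without Hdac2 WT replicate 1 (adjusted p = 0.0598) and with these groups alone (adjusted p = 0.0652). Its direction depended on the scaling in the other comparisons: under quantile normalization it was higher, by 0.41 (adjusted p = 0.0435) in Hdac1 mutant and 0.41 (adjusted p = 0.0405) in FK228 embryos.

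RBBP4 and RBBP7 bind histone tails and also serve in other chromatin complexes. Rbbp4 had 10.8 and 19.9 FPKM in Hdac1 mutant embryos, against 22 and 27.8 FPKM in Hdac1 WT embryos. It had 16.6 and 10.8 FPKM in Hdac2 mutant embryos, against 22.8 and 26.4 FPKM in Hdac2 WT embryos. It had 9.92 and 8.79 FPKM after FK228, against 33.1 and 30.5 FPKM in DMSO. The FK228 libraries were lowest and close together, while the mutant pairs were wide apart. The log2 changes were -0.72 ± 0.24, -0.82 ± 0.24 and -1.66 ± 0.24 (SE; limma adjusted p = 0.0193, 0.00849 and 2.06e-05). The Hdac1 call for Rbbp4 was lost without Hdac1 mutant replicate 1 (log2 change -0.30, adjusted p = 0.309), without Hdac1 WT replicate 2 (adjusted p = 0.133) and under quantile normalization (adjusted p = 0.115), and the Hdac2 call without Hdac2 mutant replicate 2 (adjusted p = 0.132) or Hdac2 WT replicate 2 (adjusted p = 0.0636). With the compared groups alone the adjusted p was 0.218 for Hdac1 and 0.0538 for Hdac2.

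Rbbp7 had 70.7 and 74.5 FPKM in Hdac1 mutant embryos, against 94.1 and 103 FPKM in Hdac1 WT embryos. It had 74.8 and 67.9 FPKM in Hdac2 mutant embryos, against 110 and 87.2 FPKM in Hdac2 WT embryos. It had 76.6 and 75.5 FPKM after FK228, against 127 and 120 FPKM in DMSO. The groups did not overlap, but the differences were the smallest among the members that fell, at -0.43 ± 0.12, -0.45 ± 0.12 and -0.69 ± 0.12 (SE; limma adjusted p = 0.00699, 0.00507 and 0.00015). Quantile normalization gave 0.16 in each mutant comparison and -0.03 after FK228. The Hdac1 call was also lost without Hdac1 WT replicate 2 (adjusted p = 0.0547), and the Hdac2 call without Hdac2 mutant replicate 2 (adjusted p = 0.0527) or Hdac2 WT replicate 1 (adjusted p = 0.0871). With the compared groups alone the adjusted p was 0.0629 for Hdac1 and 0.08 for Hdac2.

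Chd4, the remodelling ATPase, had 23.7 and 27.2 FPKM in Hdac1 mutant embryos, against 17.9 and 25.5 FPKM in Hdac1 WT embryos. It had 26.0 and 23.3 FPKM in Hdac2 mutant embryos, against 27.2 and 22.4 FPKM in Hdac2 WT embryos. It had 29.5 and 40.9 FPKM after FK228, against 25.6 and 25.4 FPKM in DMSO. The mutant groups overlapped their controls and passed no test, with 95% confidence intervals of -0.12 to 0.60 and -0.37 to 0.36 on the log2 scale. In the Hdac1 comparison Chd4 passed under quantile normalization (0.57, adjusted p = 0.0164) and without Hdac1 WT replicate 2 (0.48, adjusted p = 0.0384). The FK228 difference of 0.43 ± 0.17 passed (adjusted p = 0.0404), but not without FK228 replicate 2 (0.20, adjusted p = 0.401), DMSO replicate 1 (adjusted p = 0.11) or DMSO replicate 2 (adjusted p = 0.119), with no filter (adjusted p = 0.0535) or with these groups alone (adjusted p = 0.125).

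The effects themselves were compared between treatments. No member differed between the Hdac1 and Hdac2 mutant effects: 0 of 10 were higher and 0 lower in limma, against 0.0404% and 0.0635% of all genes, and 1 of 10, Mbd2, had an unadjusted p under 0.05, against 1658 of 17336 genes. The difference in Mbd2 was 1.31 on the log2 scale (95% confidence interval 0.52 to 2.10; adjusted p = 0.237), and that in Mta2 was 0.46 (-0.04 to 0.96). Between the Hdac1 mutant and FK228 effects, 1 member was higher and 1 lower, against 4.76% and 2.2% of all genes. Mta2 was less reduced in Hdac1 mutant than in FK228 embryos, by 1.07 ± 0.23 (adjusted p = 0.0158), and Mta3 more reduced, by -1.21 ± 0.22 (adjusted p = 0.00545). The Mta2 difference missed the threshold without FK228 replicate 2 (adjusted p = 0.0689) or DMSO replicate 1 (adjusted p = 0.0601), and both missed it when these 4 groups alone were fitted (adjusted p = 0.075 and 0.0773).

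The paralogues' shares of each position changed with these levels. Mta2 made up 68.7% and 75.0% of the summed MTA FPKM in Hdac1 mutant embryos, against 84.5% and 85.3% in Hdac1 WT embryos. It made up 50.5% and 42.0% after FK228, against 88.4% and 87.2% in DMSO. The MTA sum was 48.7 and 53.9 FPKM in Hdac1 mutant embryos, against 267 and 258 FPKM in Hdac1 WT embryos, and these did not overlap. Mbd2 made up 41.5% and 44.6% of the summed Mbd2 and Mbd3 FPKM in Hdac1 mutant embryos, against 9.82% and 6.1% in Hdac1 WT embryos. It made up 51.6% in both Hdac2 mutant libraries, against 25.0% and 22.1% in Hdac2 WT embryos, and 45.9% and 48.2% after FK228, against 16.8% and 20% in DMSO. Every late library with mutant enzyme or FK228 had a higher Mbd2 share than every other late library. Shares carry no test here, and they rest on FPKM, which divide by gene length.

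**Figure D3:**
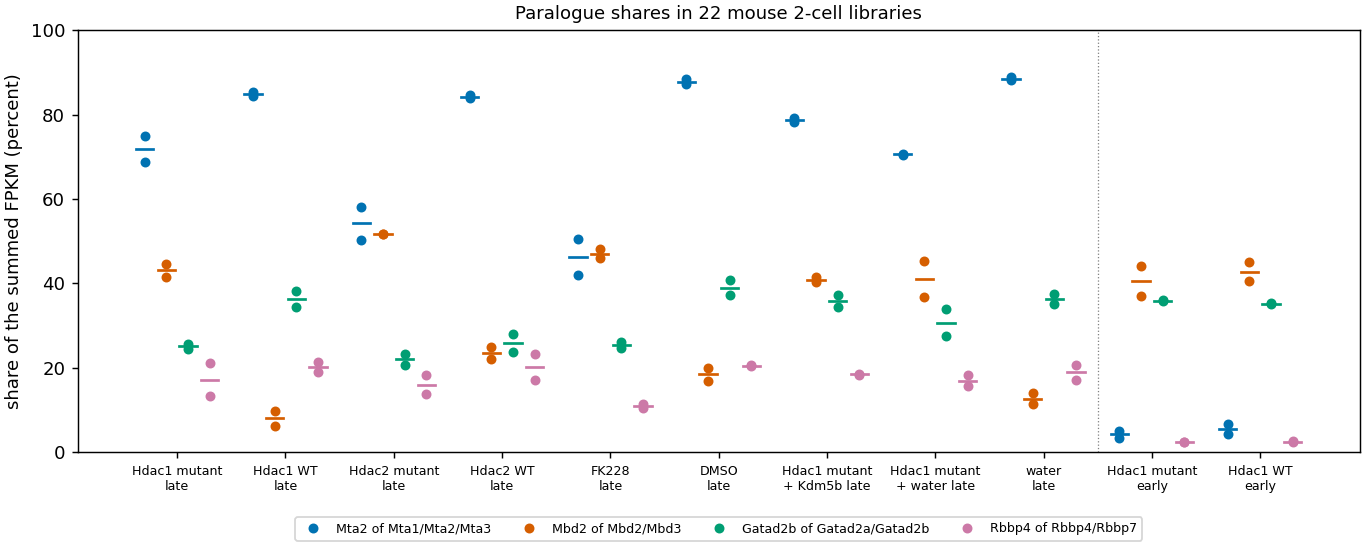
Share (percent of summed FPKM) of Mta2 among the 3 MTA genes, Mbd2 in Mbd2 and Mbd3, Gatad2b in Gatad2a and Gatad2b, and Rbbp4 in Rbbp4 and Rbbp7, in the 22 mouse libraries by group, with bars at the mean of 2 libraries and a dotted line between late and early groups. The Mbd2 share is 36.8% to 51.6% in the late groups with mutant enzyme or FK228 and 6.1% to 25.0% in the other late groups, and the Rbbp4 share is at most 2.66% in early 2-cell embryos.

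At the early 2-cell stage, before most embryonic transcription in the mouse, the mutant had no detectable effect on any member. Of the 10 members 0 rose and 0 fell in limma between Hdac1 mutant and Hdac1 WT embryos, against 0.231% and 0.329% of all genes, and 0 had an unadjusted p under 0.05, against 1057 of 17336 genes. Mta2 had 3.54 and 4.36 FPKM in early Hdac1 mutant embryos, against 4.32 and 6.31 FPKM in early Hdac1 WT embryos, and the libraries overlapped (95% confidence interval of the log2 change -0.69 to 0.02). Mta3 had 85.0 and 67.1 FPKM in early Hdac1 mutant embryos, against 78.0 and 73.8 FPKM in early Hdac1 WT embryos. The other 8 members overlapped between these groups as well.

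Between the early and late stage the complex changed its main transcripts. In late Hdac1 WT embryos 2 members were higher and 7 lower than in early Hdac1 WT embryos, against 28.8% and 28.1% of all genes. Mta2 averaged 223 ± 3.42 FPKM late and 5.31 ± 1.41 FPKM early (SD, n = 2 each), which is 42.0-fold higher and ranks 33 from the highest of 17336 genes (log2 change 5.17 ± 0.17; limma adjusted p = 4.12e-12). Rbbp4 was at 22 and 27.8 FPKM late, against 15.1 and 16.0 FPKM early, a rise of 0.64 ± 0.24 (adjusted p = 0.0311) that did not pass under 6 of 11 alternatives, among them leaving out Hdac1 WT late replicate 2 or either Hdac1 WT early replicate. Rbbp7 had 94.1 and 103 FPKM late, against 646 and 586 FPKM early, and fell by 2.63 ± 0.12 (adjusted p = 7.05e-11). Chd4 had 17.9 and 25.5 FPKM late, against 110 and 117 FPKM early, and Mbd2 had 5.17 and 2.46 FPKM late, against 31.3 and 22.9 FPKM early; they fell by 2.35 ± 0.17 and 2.59 ± 0.26 (adjusted p = 8.65e-09 and 4.21e-07). These 3 had no late library near an early one. Mta1, Mta3, Gatad2a and Gatad2b fell by 0.89 to 1.22 on the log2 scale (Mta1 not when these groups alone were fitted, adjusted p = 0.0639), and Mbd3, at 47.5 and 37.8 FPKM late and 38.2 and 33.6 FPKM early, was not called. The summed FPKM of 8 oocyte markers was 473 to 534 in late and 6530 to 6750 in early Hdac1 WT libraries, and its part in these results was not tested.

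**Figure D4:**
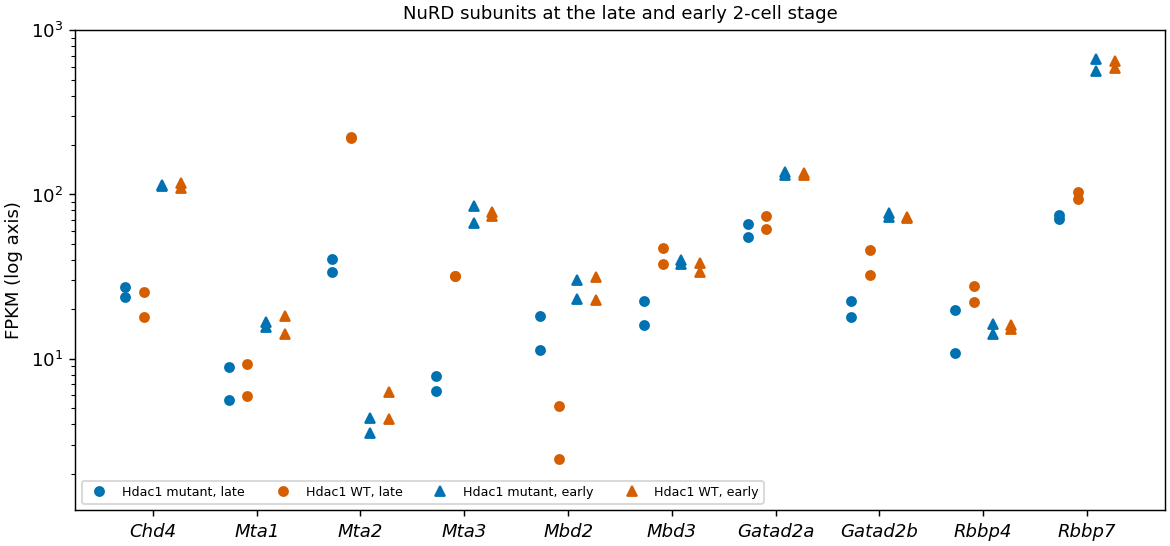
FPKM (log axis) of the 10 NuRD subunits in Hdac1 mutant and Hdac1 WT embryos at the late (circles) and early (triangles) 2-cell stage, 1 point per library and 2 libraries per group. Early groups overlap for every member, and the late groups part most at Mta2, Mta3 and Mbd2.

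In Hdac1 mutant embryos the course differed. Late embryos had 1 member higher and 8 lower than early embryos, against 40.6% and 25.8% of all genes. Mta2 was still higher late, at 33.5 and 40.4 FPKM against 3.54 and 4.36 FPKM early, but by 9.36-fold (log2 change 2.94 ± 0.17; limma adjusted p = 1.03e-09). Mta3 had 6.33 and 7.9 FPKM late, against 85.0 and 67.1 FPKM early, and fell by 3.24 ± 0.15 (adjusted p = 1.8e-10). Mbd2, at 11.3 and 18.2 FPKM late and 23.2 and 30 FPKM early, fell by 0.83 ± 0.26 (adjusted p = 0.0113), a call lost without Hdac1 mutant late replicate 1 (adjusted p = 0.146), without Hdac1 mutant early replicate 2 (adjusted p = 0.0955) and with these groups alone (adjusted p = 0.0833). Mbd3, at 16.0 and 22.6 FPKM late and 39.7 and 37.8 FPKM early, fell by 0.99 ± 0.18 (adjusted p = 0.000178). Rbbp4, at 10.8 and 19.9 FPKM late and 16.2 and 14.2 FPKM early, had no change beyond its spread. Tested as a difference, the Hdac1 mutant effect was lower at the late than at the early stage in 4 members and higher in 1, against 15.2% and 21.2% of all genes. The 4 were Mta2 (-2.23 ± 0.23; adjusted p = 6.47e-06), Mta3 (-2.03 ± 0.22; adjusted p = 6.77e-06), Mbd3 (-1.22 ± 0.25; adjusted p = 0.00148) and Gatad2b (-0.95 ± 0.21; adjusted p = 0.00237), and the 1 was Mbd2 (1.76 ± 0.37; adjusted p = 0.00166). These comparisons share libraries with those above. Hdac1 RNA itself was lower in mutant than WT embryos early and higher late, and its part in these differences was not tested.

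Wild-type enzyme was compared with water. Between Hdac1 WT and water embryos 0 of 10 members rose and 0 fell in limma, against 0.352% and 1.83% of all genes, and 4 of 10 had an unadjusted p under 0.05, against 2739 of 17336 genes. Of these, Chd4 passed without Hdac1 WT replicate 2 (-0.75, adjusted p = 0.0317), Mbd2 without Hdac1 WT replicate 1 (-1.29, adjusted p = 0.0361) and Mta3 under median-ratio scaling (0.59, adjusted p = 0.0487). Mta2 had 225 and 221 FPKM in Hdac1 WT embryos, against 235 and 220 FPKM after water (log2 change -0.03, 95% confidence interval -0.38 to 0.32). Between Hdac2 WT and water embryos 4 members rose and 1 fell, against 6.59% and 2.86% of all genes. The 4 were Mbd2 (1.30 ± 0.26; adjusted p = 0.00562), Gatad2a (0.88 ± 0.17; adjusted p = 0.00403), Mta1 (0.84 ± 0.22; adjusted p = 0.0232) and Mta3 (0.54 ± 0.15; adjusted p = 0.0365), and the 1 was Rbbp7 (-0.46 ± 0.12; adjusted p = 0.0273). Gatad2a had 137 and 115 FPKM in Hdac2 WT embryos, against 66.4 and 69.9 FPKM after water, with no overlap. When these 2 groups alone were fitted no member was called, but over all genes too 0 were higher and 0 lower. Some of the calls made with all groups were also lost on leaving out any 1 library. Mta2 was at 234 and 266 FPKM in Hdac2 WT embryos and was not called (0.13, -0.22 to 0.49).

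Kdm5b encodes an H3K4 demethylase, and the question of its injection, as far as the labels show, was whether it changes the transcripts of embryos with mutant Hdac1. Kdm5b was at 594 and 638 FPKM after Kdm5b mRNA, against 61.3 and 74.0 FPKM after water. Mta2 had 73.7 and 86.0 FPKM after Kdm5b, against 43.7 and 49.1 FPKM after water, while embryos injected with water alone as zygotes had 235 and 220 FPKM. Mta2 was the member called, so 1 of 10 rose and 0 fell, against 0.415% and 0.629% of all genes. Its log2 change of 0.77 ± 0.17 (limma adjusted p = 0.0433) passed under 4 of 12 settings and failed without any 1 of the 4 libraries, with adjusted p between 0.0717 and 0.33. The Mta2 level after Kdm5b still lay far below the water group. Of the other 9 members, 8 were higher on average after Kdm5b and Gatad2a was lower, none past the threshold.

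Mutant Hdac1 embryos given a further water injection are set beside those injected at the zygote stage only, with no test of the difference. Hdac1 itself was at 917 and 805 FPKM with the water injection and at 4950 and 4610 FPKM without it. Mta2 was at 43.7 and 49.1 FPKM in them and at 33.5 and 40.4 FPKM in embryos without it. Mta3 was at 9.51 and 11.1 FPKM with the water injection and at 6.33 and 7.9 FPKM without it. By group mean over all 11 mouse groups, Mta2 ran in the order DMSO, Hdac2 WT, water and Hdac1 WT, whose libraries overlapped between neighbours, then Hdac1 mutant with Kdm5b, Hdac1 mutant with water, Hdac1 mutant, Hdac2 mutant and FK228, each apart from the next, and last the early groups, which overlapped. The fold range of group means was 68.0 for Mta2, 10.7 for Mta3, 8.63 for Rbbp7, 7.53 for Mbd2 and 5.25 for Chd4. It was 2.27 for Mta1, the least varied member.

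Genes that work with NuRD were listed by role. Of 24 partners and recruiters, 18 were tested in mouse: 7 rose and 7 fell in Hdac1 mutant, 6 rose and 8 fell in Hdac2 mutant, and 8 rose and 8 fell in FK228 embryos. Of all genes tested, 30.5% rose and 21.6% fell in Hdac1 mutant, 30.8% rose and 22.2% fell in Hdac2 mutant, and 31% rose and 26.3% fell in FK228 embryos. The median log2 changes of the partners were -0.09, -0.29 and -0.16. These counts include Hdac1 and Hdac2 themselves, one of which was injected in each mutant comparison. The deacetylase partner Hdac2 rose to 47.3 and 43.8 FPKM in Hdac1 mutant embryos, against 19.3 and 16.3 FPKM in Hdac1 WT embryos (1.31 ± 0.14; limma adjusted p = 1.54e-06). Hdac1 fell to 51.2 and 47.7 FPKM after FK228, against 90.6 and 92.1 FPKM in DMSO (-0.87 ± 0.18; adjusted p = 0.000492). Cdk2ap1, a small subunit found with NuRD, fell in all 3 comparisons. It had 30.5 and 29.1 FPKM in Hdac1 mutant embryos, against 143 and 122 FPKM in Hdac1 WT embryos, and 21.5 and 19.9 FPKM after FK228, against 145 and 164 FPKM in DMSO. Mbd3l2, a germline relative of Mbd3, had 14.9 and 25.4 FPKM in Hdac1 mutant embryos, against 87.5 and 91.7 FPKM in Hdac1 WT embryos (-2.14 ± 0.17; adjusted p = 7.8e-08). Bend3, a recruiter that binds DNA, had 4.37 and 5.89 FPKM after FK228, against 40.6 and 38.4 FPKM in DMSO (-2.74 ± 0.17; adjusted p = 5.12e-09). The neural and lymphoid recruiter Bcl11b rose, at 3.91 and 5.57 FPKM in Hdac1 mutant embryos, where Hdac1 WT embryos are listed at 0. It had 5.18 and 6.94 FPKM after FK228, against 0.0715 and 0.285 FPKM in DMSO. Sall1 rose in Hdac2 mutant embryos (1.69 ± 0.19; adjusted p = 1.71e-06) and Bcl11a after FK228 (1.86 ± 0.18; adjusted p = 4.4e-07).

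Of 17 genes whose proteins use RBBP4 or RBBP7 outside NuRD, 16 were tested, and 3 rose and 9 fell in Hdac1 mutant, 4 rose and 9 fell in Hdac2 mutant, and 4 rose and 8 fell in FK228 embryos. Over all genes the shares were 30.5% higher and 21.6% lower, 30.8% and 22.2%, and 31% and 26.3% in these comparisons. Bptf, the large NURF subunit, fell to 16.1 and 18.8 FPKM in Hdac1 mutant embryos, against 66.2 and 70.2 FPKM in Hdac1 WT embryos, and Smarca5, the ISWI ATPase, fell to 19.3 and 19.9 FPKM after FK228, against 92.3 and 85.1 FPKM in DMSO. Lin52 fell and Lin37 rose in all 3 comparisons, both subunits of the MuvB complex. Chaf1b, of the histone chaperone CAF-1, rose to 41.2 and 30.3 FPKM in Hdac1 mutant embryos, against 5.87 and 9.84 FPKM in Hdac1 WT embryos, and Sin3b rose after FK228 (1.28 ± 0.32; limma adjusted p = 0.00314). Of 16 other remodeller ATPases, 3 rose and 8 fell in Hdac1 mutant, 2 rose and 7 fell in Hdac2 mutant, and 2 rose and 9 fell in FK228 embryos, beside the same shares over all genes. Smarca4, the ATPase of BAF complexes, fell to 9.32 and 11 FPKM in Hdac1 mutant embryos, against 43.3 and 47.5 FPKM in Hdac1 WT embryos, and to 9.34 and 9.04 FPKM after FK228, against 59.8 and 62.6 FPKM in DMSO. Ercc6 fell in all 3 comparisons, Chd6 rose in all 3, Chd2 rose in both mutants, and Smarca2 rose after FK228. The median log2 change of these ATPases was -0.65, -0.33 and -0.95, beside 0.17, 0.14 and 0.15 over all genes.

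In bovine embryos FK228 lowered 3 of the 10 members and raised 0, against 27.4% and 22.2% of 12590 genes tested. MTA2 had 16.0 and 12.2 FPKM after FK228, against 53.2 and 50.8 FPKM in DMSO, and fell by 1.83 ± 0.19 on the log2 scale (SE; limma adjusted p = 0.000164). RBBP4 had 58.5 and 41.7 FPKM after FK228, against 183 and 160 FPKM in DMSO, and fell by 1.77 ± 0.20 (adjusted p = 0.00023). GATAD2B had 10.4 and 8.52 FPKM after FK228, against 19.9 and 20.5 FPKM in DMSO, and fell by 1.02 ± 0.19 (adjusted p = 0.00266). In each of these the FK228 libraries lay below both DMSO libraries, and the calls held under all 11 settings tried. MBD3, at 43.6 and 43.6 FPKM after FK228 and 36.1 and 36.9 FPKM in DMSO, and MTA3, at 6.05 and 6.94 FPKM after FK228 and 4.89 and 7.19 FPKM in DMSO, passed no test, with intervals of -0.11 to 0.61 and -0.43 to 0.65. MBD2 had 47.7 and 59.0 FPKM after FK228, against 49.2 and 56.4 FPKM in DMSO, and the libraries overlapped. The remaining members were not called: CHD4 at -0.33, RBBP7 at -0.30, MTA1 at 0.50 and GATAD2A at 0.31. Quantile normalization gave 3 members higher, MTA1 (0.54), MBD3 (0.42) and GATAD2A (0.62), against 3231 of the 12590 genes tested. MTA2 made up 50.4% and 43.2% of the MTA sum after FK228, against 82.9% and 78.6% in DMSO, and RBBP4 made up 35.3% and 28.4% of its pair, against 59.6% and 53.8% in DMSO. The species were fitted apart, their stages and hours differ, and the difference between their responses was not tested.

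**Figure D5:**
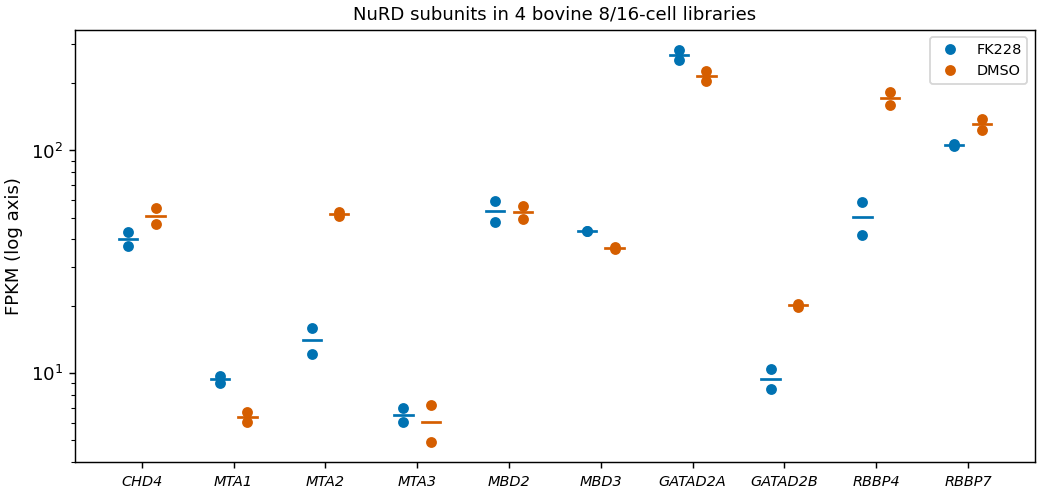
FPKM (log axis) of the 10 NuRD subunits in bovine 8/16-cell embryos after FK228 and in DMSO, with points for libraries and bars at means of 2 libraries. MTA2, GATAD2B and RBBP4 are lower after FK228, MTA2 at 16.0 and 12.2 FPKM against 53.2 and 50.8 FPKM.

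Among the bovine lists, 2 of 15 tested partners and recruiters rose and 5 fell, 1 of 16 partners of RBBP4 and RBBP7 outside NuRD rose and 10 fell, and 1 of 14 other ATPases rose and 8 fell, against 22.2% higher and 27.4% lower over all genes. ZFPM1, a GATA cofactor that recruits NuRD, rose to 17.5 and 17.0 FPKM after FK228, against 2.81 and 4.75 FPKM in DMSO. KDM1A, a histone demethylase found with NuRD, fell to 20.2 and 18.6 FPKM, against 51.0 and 57.5 FPKM in DMSO (-1.44 ± 0.17; limma adjusted p = 0.000292). HDAC2 fell to 16.9 and 14.9 FPKM, against 32.1 and 32.2 FPKM in DMSO (-0.98 ± 0.17; adjusted p = 0.00208), and HDAC1 had 40.6 and 38.4 FPKM, against 55.7 and 50.3 FPKM in DMSO, and was not called (adjusted p = 0.0628). PWWP2A fell and CDK2AP2 rose among the partners, EED and HAT1 fell and SIN3B rose among the RBBP4 and RBBP7 partners, and SMARCAD1 and CHD1L fell and SMARCA2 rose among the ATPases. The summed bovine cumulus and granulosa markers were 55 and 65.4 FPKM after FK228, against 40.6 and 43.5 FPKM in DMSO, and the sperm markers 8.06 and 4.43 FPKM, against 0.239 and 1.14 FPKM, whose part in these results was not tested.

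The genes whose group means ran most like a member's over the 11 mouse groups were ranked among 7820 genes by Pearson's r of log2(FPKM + 1). They are given as a description, since all groups share the same normalization. For Rbbp7 and Chd4 most of the range is the step between stages, while the early means of Mbd2, Mbd3 and Rbbp4 lay inside the range of their late means. For Mta2 the genes most alike were Nufip1 and Btbd18, each with r = 0.998. For Rbbp7 they were Copa (r = 0.995) and Smn1 (0.994), for Chd4 Lmo7 (0.992) and Zfp957 (0.991), and for Gatad2b Asxl1 (0.992) and Mcm2 (0.991). For Mta3 they were Sf3b3 (0.987) and Spag1 (0.98), for Gatad2a Cabin1 and Arid1a (both 0.977), and for Mbd3 Rhno1 and Mrpl38 (both 0.976). For Rbbp4 they were Ints8 (0.974) and Ran (0.97), for Mta1 Srsf4 (0.967) and Blcap (0.952), and for Mbd2 Traf4 (0.966) and Spry1 (0.956). Among the members themselves, Mta3 and Gatad2b had r = 0.96 and Chd4 and Rbbp7 0.95, while Mta2 and Chd4 ran opposite at -0.81.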

How the data were processed

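The authors deposited 1 table of FPKM values per gene and library in each organism. The submitters' processing notes name Trimmomatic, HISAT2, featureCounts, Cufflinks and DESeq2, and the builds GRCm38 and ARS-UCD1.2, with versions not given in the sources used here. Only FPKM were used, so no count test was run. Values were taken to log2(FPKM + 1), genes with at least 1 FPKM in at least 2 libraries were kept, and limma 3.58.1 (R 4.3.3) with a trended variance was fitted once per species, with 11 residual degrees of freedom in mouse and 2 in cattle, two-sided, with Benjamini-Hochberg adjustment over all genes. Confidence intervals are at 95%. A script using this test was checked on simulated data. Low values were compared between libraries for relative depth. Alternatives were a pseudocount of 0.1, no filter, a minimum of 5 FPKM, median-ratio scaling, quantile normalization, the replicate block, a fit of the compared groups alone and leaving out each library. The text names all members, the 2 highest and 2 lowest called genes per list and late comparison except where not reported, and the 2 genes most like each member among those with a mean of at least 5 FPKM. A list of other methyl-CpG readers is not reported here. The members and lists were chosen with earlier results of these data known. Sequences are RefSeq's, and figures used matplotlib 3.10.9.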

Additional observations from a re-analysis of the deposited data

Results flagged for a closer look

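The Hdac1 mutant effect was tested as a difference between the late and early 2-cell stage, and 5 members passed: on the log2 scale Mta2 differed by -2.23, Mta3 by -2.03, Mbd3 by -1.22, Gatad2b by -0.95 and Mbd2 by 1.76, late minus early. Between the Hdac1 mutant and the FK228 effect at the late 2-cell stage, 2 members differed: Mta2 by 1.07 and Mta3 by -1.21, Hdac1 mutant minus FK228. Groups of 2 libraries are too small for a test of a library that stands apart.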

How the results depend on the processing

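All 130 member results kept their side of the threshold under a minimum of 5 FPKM and under the replicate block. These 2 settings leave each fold change as it was, so only the test could move. Replicate numbers showed little pairing in most mouse groups: 3 of 55 pairs of groups had same-numbered deviations correlated above 0.1. Among these were late Hdac1 mutant and Hdac1 WT embryos (r = 0.14) and Hdac1 WT and water embryos (r = 0.17), where a pairing cannot be told from these values. The 1 bovine pair of groups, at r = 0.23, has only 2 numbers. With the replicate block the late Hdac1 mutant comparison had 5290 genes higher and 3780 lower, and no member count moved. Quantile normalization reversed Gatad2a in Hdac1 mutant (0.41) and FK228 embryos (0.41) and Rbbp7 in Hdac1 mutant (0.16) and Hdac2 mutant embryos (0.16); the cause was not tested. It changed the members called higher to 3 for the Hdac1 mutant, 1 for the Hdac2 mutant, 1 for late against early Hdac1 WT, 2 for Hdac2 WT against water, 0 for Kdm5b and 3 for bovine FK228. Of all 17336 mouse genes tested, this normalization called 4192 higher for the Hdac1 mutant and 4219 for the Hdac2 mutant. It called 4608 higher for late against early Hdac1 WT, 733 for Hdac2 WT against water and 44 for Kdm5b. Of 12590 bovine genes, it called 3231 higher. For mouse FK228, Gatad2a joined the members called higher, while 4762 of all genes were higher. Calls of lower members were lost too: Rbbp4 and Rbbp7 for the Hdac1 mutant, and Gatad2a and Rbbp7 for the Hdac2 mutant. Rbbp7 also lost its call for mouse FK228, and Gatad2a for late against early Hdac1 mutant embryos. The share of higher among all calls was then 48% in Hdac1 mutant, 48.2% in Hdac2 mutant and 47.6% in late against early Hdac1 mutant embryos, against 58.5%, 58.1% and 61.1% without it.

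Fitting only the groups compared, with fewer libraries behind the spread, left 0 members higher and 3 lower for the Hdac1 mutant, 4 lower for the Hdac2 mutant, 1 higher for mouse FK228, 0 higher and 0 lower for Hdac2 WT against water, 0 higher for Kdm5b, and 0 higher and 0 lower for the Hdac1 mutant minus FK228 effect. Over all genes, this fit called 3118 higher and 2186 lower for the Hdac1 mutant, against 5281 and 3746 with all groups fitted. It called 5148 and 3606 for the Hdac2 mutant, and 5211 and 4513 for mouse FK228. For the Hdac1 mutant minus FK228 effect it called 5 and 1. For Hdac2 WT against water and for Kdm5b it called 0 and 0, so those member counts of 0 are not particular to the members. No filter left 1 higher for mouse FK228 and 1 for late against early Hdac1 WT. Median-ratio scaling left 1 higher for late against early Hdac1 WT, 1 for Hdac1 WT against water and 0 for Kdm5b. A pseudocount of 0.1 left 0 for Kdm5b. Over all genes, 20 were higher for Kdm5b under median-ratio scaling and 8 under a pseudocount of 0.1, against 72 without them. For these settings the cause was not tested.

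Leaving out 1 library at a time, members higher ranged from 0 to 2 for mouse FK228, 1 to 2 for the Hdac1 mutant, 0 to 2 for the Hdac1 mutant minus FK228 effect, 1 to 2 for Hdac2 WT against water, 1 to 2 for late against early Hdac1 WT and 0 to 0 for Kdm5b. Members lower ranged from 4 to 6 for the Hdac1 mutant, 4 to 7 for the Hdac2 mutant, 4 to 5 for the stage difference, 7 to 8 for late against early Hdac1 mutant, 0 to 1 for Hdac1 WT against water and 0 to 1 for Hdac2 WT against water. With 2 libraries a group and no read counts, small changes of low members such as Mta1 are not resolved.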
